A study of Oryza sativa with 26 samples.

Results

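IPA1 and the other SPL transcription factors of rice were followed through the development of the lamina joint, the collar of tissue that connects blade and sheath and lets the leaf bend away from the stem. The members were taken by name: probe sets whose gene symbol or synonym was IPA1, SPL3, SPL7, SPL12, SPL13, SPL16, SPL17 or SPL18, with LG1 set aside. Of these 8 symbols, 5 led to a measured gene, and they led to 6 genes of the 17905 measured. Only 4 of the 6 are SPL factors, namely IPA1 (LOC4345998, also called SPL14), SPL7 (LOC4336597), SPL12 (LOC4341986) and SPL16 (LOC4346133). The other 2 carry an SPL symbol for another reason: SPL is also the symbol of the rice spotted-leaf genes. They are HSFA4D (LOC4339409, synonym SPL7), a heat stress transcription factor, and AT1 (LOC4348247, synonym SPL18), an acyltransferase, and they are described apart. SPL3 and SPL17 matched no gene by name, and no probe set is named here for SPL13 (LOC9270355), so these 3 are not analysed here. Each of the 6 genes had 1 probe set.

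SPL proteins (SQUAMOSA promoter-binding protein-like) are plant transcription factors with an SBP zinc-finger domain that bind GTAC core motifs. The transcripts of IPA1, SPL7, SPL12 and SPL16 are targets of the microRNA miR156, whose level falls as a plant ages. IPA1 (IDEAL PLANT ARCHITECTURE 1) is known for limiting tiller number and raising panicle branching in rice, and SPL16 for controlling grain width. LG1, an SPL factor of the same family, is required for the ligule, auricle and lamina joint to form.

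All samples came from 1 genotype, the japonica cultivar Zhonghua 11, grown in a greenhouse with no treatment, and tissue was cut by hand into liquid nitrogen. Joints of 3 leaf positions were taken: the last leaf to form and the second and the third when counted backwards, referred to as last joint, second joint and, for the oldest, the third joint. Each was sampled at stage 2 (young, white to creamy), stage 4 (mature, leaf angle of 0), stage 5 (angle opening) and stage 6 (senescent and dehydrated). The last joint was 60, 65, 70 and 80 days after sowing at these stages, the second 55, 60, 65 and 75 days and the third 50, 55, 60 and 70 days. A green piece of the third leaf, taken at stage 4 and 55 days after sowing, was the leaf control. There are 26 arrays, 2 for each of 13 groups, called biological replicates in the labels without mention of separate plants or plots, so a p-value here covers only how far such samples vary. In whole tissue, fewer cells of a type and less RNA per cell cannot be told apart.

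Values are log2 expression per probe set, normalised by the authors with RMA, and levels are compared only within a probe set. Array medians lay between 5.08 and 5.17, and no detection calls are used here, so values near or below those medians are read with caution. LG1, the marker of the joint, lay between 7.52 and 9.89 on the joint arrays and at 5.84 and 6.03 on the leaf arrays, with no overlap between the tissues. Calls required at least a 2-fold difference and an adjusted p under 0.05 (limma, Benjamini-Hochberg over 57194 probe sets). Array numbers limit the precision, and the arrays of a group correlated at r from 0.971 to 0.995 across probe sets. Replicate 1 of the second joint at stage 5 had an upper quartile of 7.50, against 7.90 to 8.08 on the others, and replicate 2 of the third joint at stage 4 had the largest 3′ to 5′ Gapdh difference (3.78).

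IPA1 and SPL16 fell between young and mature joints. At stage 4 against stage 2, with the 3 leaf positions averaged, 2 of the 4 SPL factors were called lower and 0 higher, while 5.8% of all probe sets were called lower, 5.67% higher and 11.5% in either direction. IPA1 was 6.00-fold lower, SPL16 was 2.20-fold lower, SPL12 was lower by less than 2-fold and SPL7 was higher by less than 2-fold. The median log2 difference of the 4 was -0.97, and that of all probe sets was 0.00.

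IPA1 had log2 values of 5.23 and 4.62 in the last joint at stage 4, against 7.45 and 6.60 at stage 2. In the second joint it had 5.49 and 5.48 at stage 4, against 8.75 and 8.08 at stage 2. In the third joint it had 5.12 and 5.21 at stage 4, against 7.37 and 8.41 at stage 2. No stage 4 array reached the lowest stage 2 array in any position, and all 6 stage 2 arrays lay above all 18 joint arrays of stages 4 to 6, the highest of which was 5.49. The log2 difference was -2.58 (SE 0.199, limma adjusted p = 2.76e-08). It was called in each position on its own, with log2 differences of -2.10 in the last joint (adjusted p = 0.00049), -2.93 in the second joint (adjusted p = 1.55e-05) and -2.72 in the third joint (adjusted p = 1.95e-05). In those positions 4.97%, 5.48% and 7.4% of all probe sets were called lower.

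**Figure D1:**
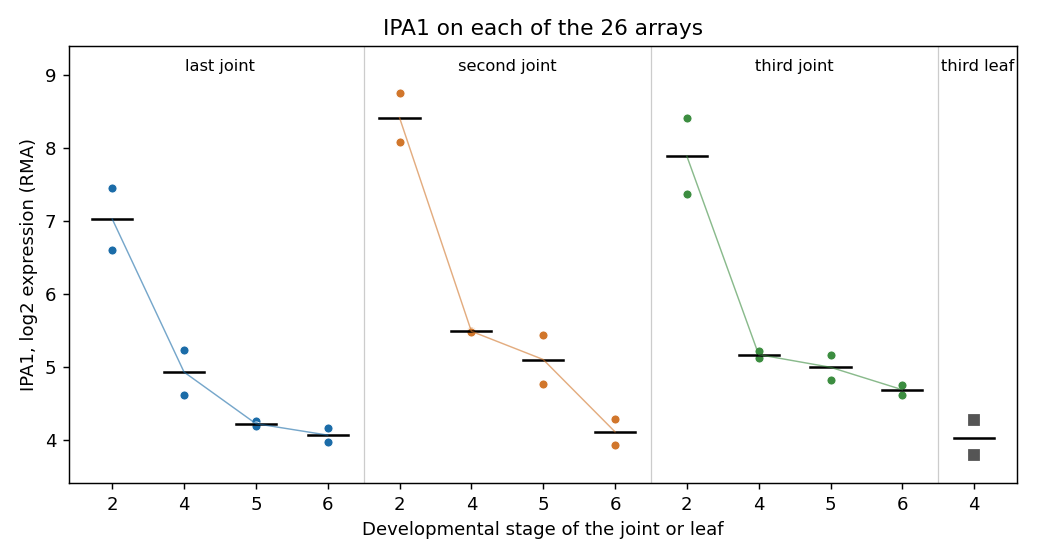
Log2 expression of IPA1 (y axis) on each of the 26 arrays by stage (x axis) in joints of the last, second and the third leaf and in the third leaf itself. Points are arrays, bars are means of 2 arrays and lines join the means. The 6 stage 2 arrays sit between 6.60 and 8.75, above every later joint array and both leaf arrays.

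SPL16, the grain width gene, had log2 values of 4.05 and 4.20 in the second joint at stage 4, against 6.56 and 5.46 at stage 2. In the third joint it had 3.92 and 4.77 at stage 4, against 5.12 and 5.56 at stage 2. In the last joint it had 4.26 and 4.11 at stage 4, against 4.94 and 4.47 at stage 2. The arrays of the 2 stages did not overlap in any position, but the last joint at stage 2 lay close to the later values. The averaged log2 difference was -1.14 (SE 0.204, limma adjusted p = 0.000317), and within positions it was called in the second joint alone (-1.89, adjusted p = 0.00116). In the last joint it was -0.53 (adjusted p = 0.443) and in the third joint -0.996 (adjusted p = 0.0536), and the difference between positions has its own F-test, given with the leaf positions. The averaged difference dropped under 2-fold without replicate 1 of the second joint at stage 2 (-0.95) and without replicate 1 of the third joint at stage 4 (-0.99). SPL16 exceeded the array median on 3 of 6 stage 2 arrays and on 0 of 6 stage 4 arrays, so its later values lie in the dim range of the array.

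SPL12, another miR156 target, had a log2 range of 8.89 to 9.91 over the 6 stage 4 joint arrays (median 9.13), against 9.74 to 10.52 at stage 2 (median 9.94). The ranges overlapped through replicate 2 of the last joint at stage 4. The log2 difference was -0.80 (SE 0.22, limma adjusted p = 0.00945), past the p threshold and under the 2-fold limit. SPL7, reported in rice to act on tiller number, ran the other way: it had 5.48 to 5.92 at stage 4 (median 5.66), against 4.68 to 5.49 at stage 2 (median 5.21), with a slight overlap in the last joint. Its log2 difference was 0.50 (SE 0.133, adjusted p = 0.00793), also under 2-fold, and its values stayed close to the array medians throughout.

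Some markers of other tissues moved over the same step. The log2 of the summed level of 3 light-harvesting genes was 10.8 to 14.1 in stage 4 joints and 13.6 to 14.5 in stage 2 joints, overlapping through the last joint at stage 4, and 3 of 3 were called lower. That of 2 epidermal lipid-transfer genes was 11.3 to 12.3 at stage 4 and 14.1 to 14.7 at stage 2, with 2 of 2 called lower. The KNOX meristem genes OSH1 and OSH71 summed to 7.06 to 7.63 at stage 4 and 5.18 to 6.88 at stage 2, with OSH71 called higher. The floral genes MADS1, MADS6 and MADS7 summed to 5.80 to 6.73 at stage 4 and 5.43 to 5.87 at stage 2, with MADS1 called higher. OSH1 (0.09, limma adjusted p = 0.644), MADS6 (0.12, adjusted p = 0.503) and MADS7 (-0.11, adjusted p = 0.523) were not called. Each of them exceeded the array median on 0 of 26 arrays. The 3′ minus 5′ log2 difference of Gapdh, a measure of RNA integrity, was 1.81 to 3.78 at stage 4 and 1.47 to 2.09 at stage 2. With that difference as a covariate the log2 differences were still called for IPA1 and SPL16 (SPL16 at -1.31, adjusted p = 0.000204). The covariate is fitted from differences between arrays of the same group, the largest being in the third joint at stage 4 (1.95 and 3.78). It therefore says little about RNA integrity between stages. The parts of RNA integrity and tissue makeup in these differences were not tested.

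**Figure D2:**
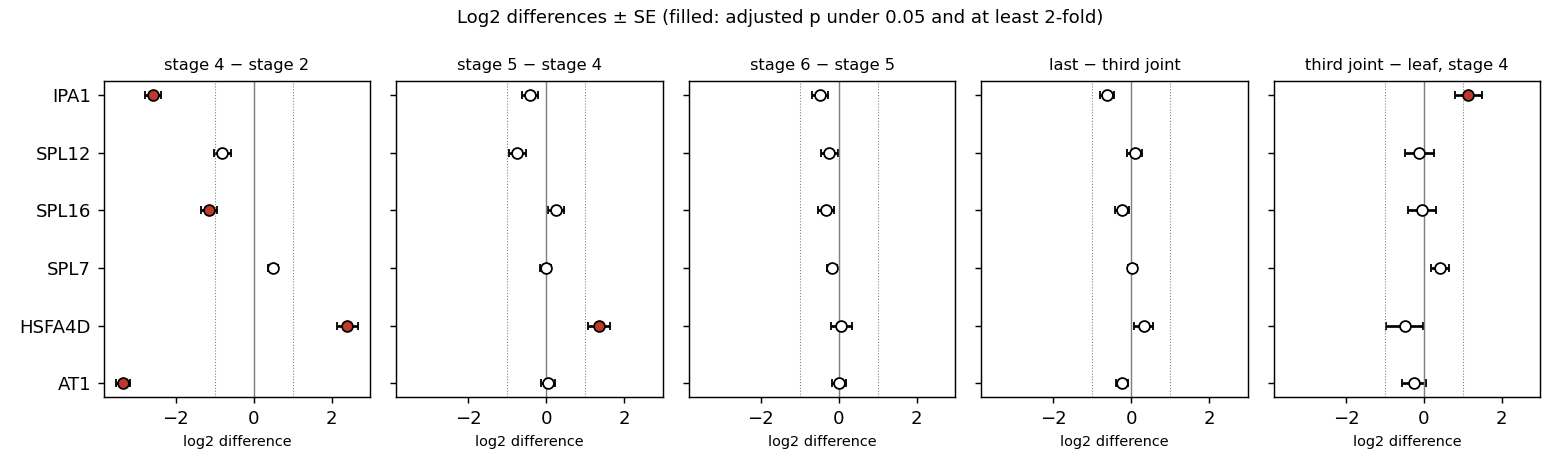
Log2 differences with SE (x axis) for IPA1, SPL12, SPL16, SPL7, HSFA4D and AT1 (rows) in 5 comparisons; filled points passed the adjusted p and the 2-fold limit, and dotted lines mark 2-fold. Most filled points belong to stage 4 minus stage 2, and 1 each to stage 5 minus stage 4 and joint minus leaf.

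The later steps were smaller. Of the 4 SPL factors, 0 were called with limma at stage 5 against stage 4 (0.696% of all probe sets) and 0 at stage 6 against stage 5 (1.74%). At an unadjusted p under 0.05 there were 2 at the first of these steps, IPA1 and SPL12, and 1 at the next, IPA1. A limma test against a 2-fold limit (treat) also gave 0 at both. IPA1 had a log2 difference of -0.42 at stage 5 against stage 4 (SE 0.199, adjusted p = 0.522) and of -0.49 at stage 6 against stage 5 (SE 0.199, adjusted p = 0.188). Its median over the 6 joint arrays was 7.76 at stage 2, 5.22 at stage 4, 4.79 at stage 5 and 4.22 at stage 6. It exceeded the array median on 6, 4, 2 and 0 of 6 arrays at these stages, so stage 6 values are in the dim range.

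SPL12 had a log2 difference of -0.75 at stage 5 against stage 4 (adjusted p = 0.142) and of -0.24 at stage 6 against stage 5 (adjusted p = 0.64). Added over all steps it fell: at stage 6 it had 8.06 and 7.88 in the last joint, 8.10 and 8.61 in the second joint and 7.91 and 8.95 in the third joint. At stage 2 it had 9.94 and 10.52 in the last joint, 9.81 and 9.94 in the second joint and 9.74 and 10.31 in the third joint. No stage 6 array reached a stage 2 array. The log2 difference at stage 6 against stage 2 was -1.79 (SE 0.22, limma adjusted p = 3.36e-06), a 3.47-fold fall that was called in the last (-2.26), second (-1.52) and the third joint (-1.60).

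At stage 6 against stage 2, 3 of the 4 SPL factors were called lower and 0 higher, while 8.01% of all probe sets were called lower, 8.51% higher and 16.5% in either direction. This comparison was added after the stage steps had been seen. IPA1 was 11.3-fold lower, with a log2 difference of -3.49 (SE 0.199, adjusted p = 2.64e-10), called in the last (-2.97), second (-4.31) and the third joint (-3.20). SPL16 had a log2 difference of -1.23 (SE 0.204, adjusted p = 9.58e-05), called in the second (-2.07) and the third joint (-1.12) and at -0.50 in the last joint (adjusted p = 0.415). The share of all probe sets called lower was 6.8% in the last, 7.95% in the second and 9.14% in the third joint. SPL7 was at 0.30 (SE 0.133, adjusted p = 0.0871). Over the same comparison 3 of 3 light-harvesting and 2 of 2 epidermal genes were called lower, and the Gapdh difference ran from 3.002 to 3.41 at stage 6 and from 1.47 to 2.09 at stage 2.

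**Figure D3:**
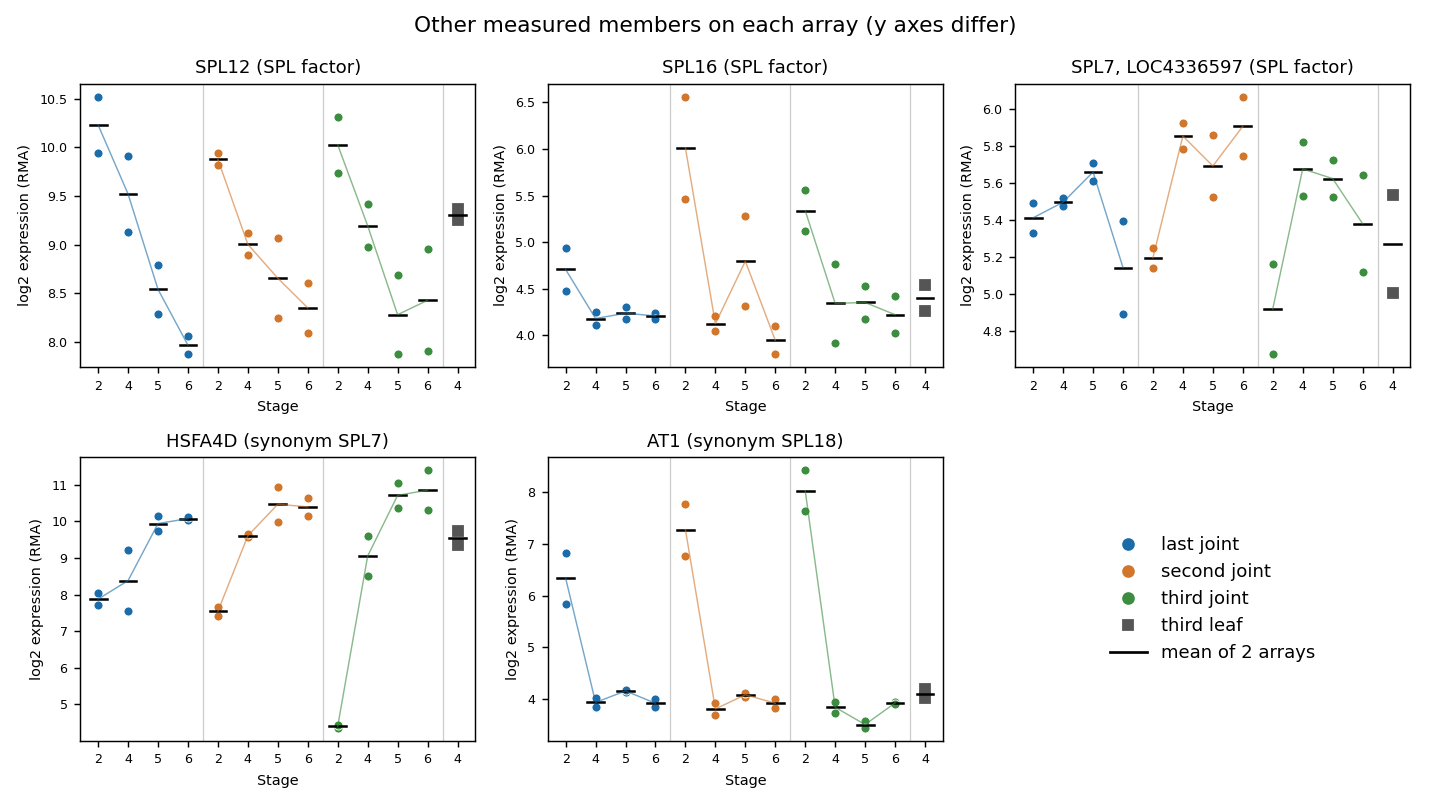
Log2 expression (y axes, scales differ) of SPL12, SPL16, SPL7, HSFA4D and AT1 on each of the 26 arrays by stage (x axis) and leaf position; points are arrays and bars are means of 2 arrays. SPL12 is lower at stage 6 than at stage 2 in each position, SPL16 is high at stage 2 mainly in the second and the third joint, HSFA4D is higher at stage 6 than at stage 2 in each position and AT1 is high at stage 2 alone.

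No SPL factor was called between leaf positions. Averaged over the 4 stages, 0 of the 4 were called with limma in the last against the third joint (1.14% of all probe sets), 0 in the last against the second (0.189%) and 0 in the second against the third (0.376%). At an unadjusted p under 0.05 these counts were 1, 2 and 1. A treat test of the last against the third joint gave 0. IPA1 was at -0.72 in the last against the second joint (SE 0.173, adjusted p = 0.0684) and at -0.62 in the last against the third (adjusted p = 0.0452), both under the 2-fold limit. The F-test over 6 contrasts of stage step by position called 5.49% of all probe sets and 0 of the 4 SPL factors, with 0 at an unadjusted p under 0.05. Its adjusted p was 0.459 for IPA1, 0.36 for SPL16, 0.376 for SPL7 and 0.766 for SPL12, so the smaller fall of SPL16 in the last joint was not shown to differ from the other positions.

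At stage 2 itself, IPA1 was lowest in the last joint (mean 7.03), with 8.42 in the second and 7.89 in the third. The last joint differed from the second by -1.39 on the log2 scale (SE 0.345, adjusted p = 0.0939) and from the third by -0.86 (adjusted p = 0.147), and neither was called, against 0.526% and 5.91% of all probe sets. In order of level over the 13 groups, the 3 stage 2 groups came first, then the second joint at stage 4 (5.48), the third at stage 4 (5.16), the second at stage 5 (5.10), the third at stage 5 (4.99) and the last at stage 4 (4.93). The third joint at stage 6 (4.68), the last at stage 5 (4.22), the second at stage 6 (4.11), the last at stage 6 (4.06) and the leaf (4.03) followed. Neighbouring groups had separate arrays at 3 of the 12 steps of this order: below the last joint at stage 2, below the second joint at stage 4 and below the third joint at stage 6. SPL12 and SPL16 had separate arrays at 0 of 12 steps and SPL7 at 1 of 12, so the order of their groups is not resolved by 2 arrays a group.

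One joint of each leaf position was sampled 60 days after sowing, each at a different stage, which sets stage apart from plant age. IPA1 had 4.82 and 5.16 in the third joint at stage 5, against 7.45 and 6.60 in the last joint at stage 2. The log2 difference was -2.04 (SE 0.345, limma adjusted p = 0.00063). The second joint at stage 4 had 5.49 and 5.48 and differed from the last joint at stage 2 by -1.54 (adjusted p = 0.0084). SPL12 differed by -1.95 in the third joint at stage 5 against the last at stage 2 (adjusted p = 0.00211), and by -1.23 in the second joint at stage 4 (adjusted p = 0.0566). In the third joint at stage 5, 2 of 4 SPL factors were called, against 8.98% of all probe sets, and in the second joint at stage 4, 1 of 4, against 6.36%. Between the third joint at stage 5 and the second at stage 4, 0 of 4 were called and 0 passed an unadjusted p under 0.05, with 0.042% of all probe sets called. Leaf position differs in each of these pairs and cannot be told apart from stage in them.

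IPA1 was the SPL member called in the joint against the leaf. In the third joint at stage 4 it had 5.12 and 5.21, against 3.79 and 4.27 in the third leaf at stage 4, with no overlap. The log2 difference was 1.14 (SE 0.345, limma adjusted p = 0.0446), or 2.20-fold. One of 4 SPL factors was thus called higher and 0 lower, while 3.42% of all probe sets were called higher, 4% lower and 7.42% in either direction. The call was lost without either array of either group: the adjusted p was 0.141 without joint replicate 1, 0.152 without joint replicate 2, 0.29 without leaf replicate 1 and 0.0635 without leaf replicate 2. Both leaf values lie below the array median. The 3′ minus 5′ Gapdh difference was 1.95 and 3.78 on the joint arrays and 1.78 and 1.82 on the leaf arrays, and with it as a covariate the adjusted p was 0.2. SPL7 (0.41, adjusted p = 0.36), SPL12 (-0.12, adjusted p = 0.929) and SPL16 (-0.06, adjusted p = 0.967) were not called. Among markers, 2 of 3 light-harvesting genes were lower in the joint, and OSH71 was higher by 3.33 and LTPL1 by 1.10. Their list partners OSH1 (0.12, adjusted p = 0.824) and LTP110-A (0.63, adjusted p = 0.461) were not called. LG1, left out of the members, was higher by 3.01 (adjusted p = 0.000607).

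The 2 genes that share only the symbol changed in opposite directions. At stage 4 against stage 2 both were called, AT1 lower and HSFA4D higher. AT1 had 3.69 to 4.01 on the 6 stage 4 joint arrays (median 3.88), against 5.85 to 8.43 at stage 2 (median 7.23). No stage 4 array came near the stage 2 range, and the log2 difference was -3.36 (SE 0.178, limma adjusted p = 3.13e-10). All later values of AT1 lay below the array medians. In the last joint at stage 2 it had 6.83 and 5.85, against 7.63 and 8.43 in the third joint at stage 2 (log2 difference -1.69, adjusted p = 0.00211).

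HSFA4D was lowest in the third joint at stage 2. It had 8.51 and 9.59 in the third joint at stage 4, against 4.36 and 4.44 at stage 2. HSFA4D lay below the array median, in the dim range, on both stage 2 arrays of the third joint. In the second joint it had 9.56 and 9.65 at stage 4, against 7.42 and 7.67 at stage 2, and in the last joint 9.22 and 7.54 at stage 4, against 8.05 and 7.71 at stage 2. The arrays of the 2 stages overlapped in the last joint only. The averaged log2 difference was 2.40 (SE 0.277, limma adjusted p = 3.07e-06), and within positions it was 0.50 in the last (adjusted p = 0.637), 2.06 in the second (adjusted p = 0.00617) and 4.65 in the third joint (adjusted p = 2.2e-06), where 4.13%, 5.4% and 7.12% of all probe sets were called higher. The F-test of stage steps by position gave an adjusted p of 0.00451. HSFA4D was higher by 3.83 at stage 6 against stage 2 (adjusted p = 5.21e-09), where AT1 was at -3.30 (adjusted p = 1.35e-10). At stage 5 against stage 4 HSFA4D was higher by 1.36 (SE 0.277, adjusted p = 0.0195). That call was lost without any 1 of 7 of the 12 arrays compared, as given with the processing alternatives.

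The other SPL factors measured were SPL1, SPL2, SPL4, SPL6, SPL8 (which is LG1), SPL9 and SPL15. At stage 4 against stage 2, 0 of these 7 were called with limma and 3 had an unadjusted p under 0.05, while 11.5% of all probe sets were called in either direction. The median log2 difference of the 7 was -0.12. SPL1 (0.75, adjusted p = 0.000299) and SPL9 (0.46, adjusted p = 0.0161) passed the p threshold upward and SPL2 (-0.96, adjusted p = 0.0491) downward, all under 2-fold. At stage 6 against stage 5 SPL2 rose by 1.44 (adjusted p = 0.0239), and at stage 6 against stage 2 SPL1 rose by 1.17 (adjusted p = 1.6e-06). SPL6 had 2 probe sets that disagree: at stage 6 against stage 2 the dimmer was called lower (-1.13, adjusted p = 0.000286) and the brighter was at -0.11 (adjusted p = 0.403). Over the 13 group means IPA1 spanned 4.39 log2 units, LG1 3.64, SPL12 2.26, SPL2 2.22, SPL16 2.07 and SPL1 1.71, and the other 5 spanned 0.683 to 1.16. Spans of different probe sets depend on how each probe set responds.

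**Figure D4:**
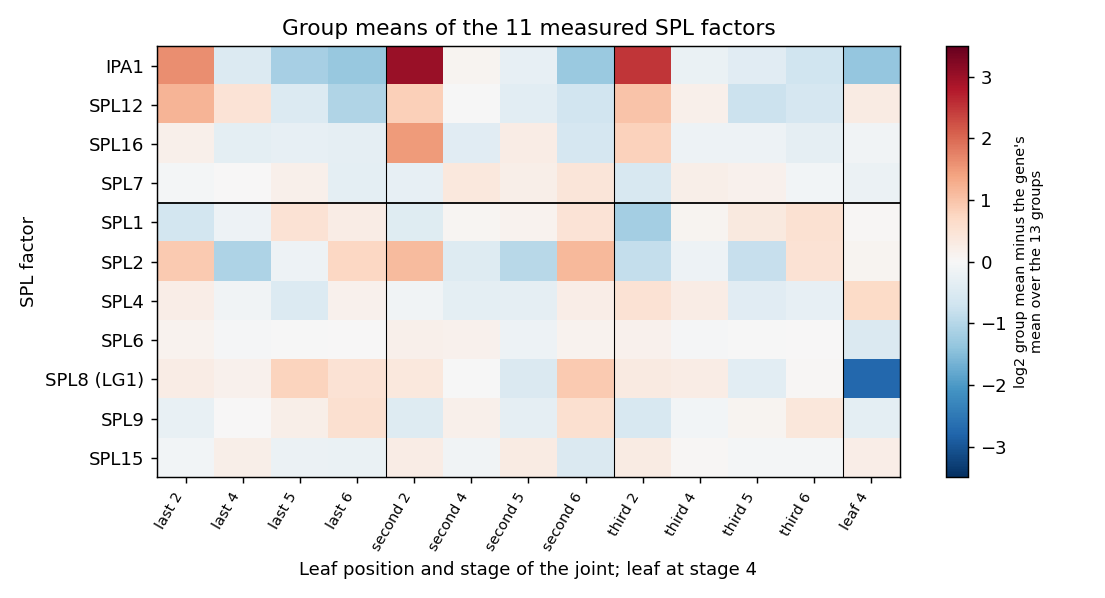
Group means of the 11 measured SPL factors (rows) in the 13 groups (columns), as log2 difference from each gene's mean over the groups. The 4 upper rows are the SPL members; IPA1 stands out at stage 2 in all 3 leaf positions, and SPL8 (LG1) is low in the leaf column.

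The group means of IPA1 correlated with those of SPL16 at r = 0.88 and of SPL12 at r = 0.784, and inversely with those of SPL1 (r = -0.842) and SPL7 (r = -0.478). These are Pearson values over 13 group means that share the same arrays and the same stage order, given as a description. By the same measure, the named genes most like IPA1 among 1807 with at least a 2-fold span were the kinesins KIN7J (r = 0.979) and KIN14F (r = 0.971), the gene with symbol PDC (r = 0.972), the YABBY factor YAB4 (r = 0.968) and the sucrose synthase RSs2 (r = 0.967). KIN7J, for example, averaged 8.95 at stage 2, 5.99 at stage 4, 5.62 at stage 5, 5.32 at stage 6 and 5.40 in the leaf. The closest gene was KCS20 for SPL16 (r = 0.948), TOM20 for SPL12 (r = 0.966), CYCD5-3 for SPL7 (r = 0.833), SUT2 for AT1 (r = 0.99) and GOS2 for HSFA4D (r = 0.965).

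A further list held genes chosen as bound by, regulated by or acting with IPA1 or SPL16. Of its 4 measured genes, 2 were called higher and 0 lower at stage 4 against stage 2. Over all probe sets 5.67% were called higher and 5.8% lower. The list was not tested for such action here. The 2 genes called higher were LOG, which activates cytokinin (1.88, adjusted p = 0.000411), and MADS34, a MADS-box gene of panicle branching (1.97, adjusted p = 0.000458). For MADS34 this is an average over leaf positions of very unlike level. At stage 6 against stage 2 the same 2 genes were called higher, LOG by 2.18 and MADS34 by 2.41, against 8.51% of all probe sets. NAL1, a gene of leaf width, passed the p threshold downward and under 2-fold in both comparisons, with log2 differences of -0.40 at stage 4 against stage 2 (adjusted p = 0.0264) and -0.87 at stage 6 against stage 2 (adjusted p = 2.72e-05). SLR1, the DELLA repressor of gibberellin response, was at -0.37 (adjusted p = 0.0523) and -0.15 (adjusted p = 0.436) in them. SLR1 was higher in the joint than in the leaf by 1.04 (adjusted p = 0.00862), and NAL1 by 1.11 (adjusted p = 0.00296). There 3.42% of all probe sets were called higher. Both differences lie close to the 2-fold limit and rest on the same few arrays as that of IPA1. They were not run under the processing alternatives. MADS34 also differed by position: it was higher by 6.01 in the last than in the third joint (adjusted p = 7.5e-08), with group means of 10.6 to 11.7 in the last joint and 4.12 to 6.16 in the third joint. In the third joint at stage 4 its mean was 4.42, in the dim range of the array. It exceeded the array median on 3 of 6 joint arrays at stage 2 and on 4 of 6 at stage 4. Its stage differences within each position are not given here.

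The 3 strigolactone genes measured were D3, D14 and D17. D17, a carotenoid cleavage dioxygenase of strigolactone synthesis, fell by 1.45 at stage 4 against stage 2 (adjusted p = 7.16e-05). The other 2 were not called, while 11.5% of all probe sets were called in either direction. At stage 6 against stage 2 D14, the strigolactone receptor, rose by 1.22 (adjusted p = 0.000547) and D17 had a log2 difference of -1.28 (adjusted p = 0.000163). In that comparison 16.5% of all probe sets were called in either direction. The AP2-class genes SHAT1 and TOE1 are related to the miR172 branch that follows miR156. SHAT1, read by the brightest of its 3 probe sets, rose by 1.58 at stage 6 against stage 5 (adjusted p = 0.0126). There 1.74% of all probe sets were called in either direction. SHAT1 was also higher at stage 6 against stage 2, by 1.70 (adjusted p = 0.000577). TOE1 was not called in these comparisons. Of the flowering genes MADS14, MADS15 and MADS18, MADS15 was higher by 3.87 (adjusted p = 0.000151) and MADS14 by 2.09 (adjusted p = 0.00198) in the last against the third joint. Between these positions 1.14% of all probe sets were called in either direction. Averaged over leaf positions, MADS15 was also higher at stage 6 against stage 2, by 1.81 (adjusted p = 0.00767), and so was MADS14, by 1.57 (adjusted p = 0.00339). These averages cover leaf positions of unlike level, and the joint arrays of the 2 stages overlapped for both genes. For MADS15 the highest stage 2 joint array (11.917) lay above the highest stage 6 joint array (11.349). A rise in every position is therefore not shown, and the differences within each position are not given here.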

How the data were processed

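The deposited values are log2 expression per probe set from 1-colour Affymetrix rice arrays, summarised by the authors with RMA (source: the submitters' processing notes). Its version and settings and the chip file were not given in the sources used here. No further scaling was applied. The 57381 probe sets include 187 controls, left out of the tests. Probe sets were named through the platform annotation and the RefSeq gene table of assembly ASM3414082v1: 22436 tested probe sets match 1 gene, 95 several and 34663 none named here. A gene is represented by its probe set with the highest mean over the 26 arrays. The ranking of genes most like a member is an exception: there each gene kept its probe set with the highest correlation. The members and gene lists were chosen with earlier results of these data known.

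All arrays entered 1 limma 3.58.1 fit (R 4.3.3) with 13 group means, no block and 13 residual degrees of freedom. Tests were two-sided, with Benjamini-Hochberg adjustment over 57194 probe sets. The naming rule took all measured members, then called genes of the fixed lists, then the 5 genes most like IPA1 and the 1 most like each other member. SPL factors and spotted-leaf genes were set apart by the other names in the gene table, since no protein sequences were supplied. CAD7, PAP2, ABCG5 and MT4A share only a symbol with a list gene and were left out. TB1, DEP1, D53, IPI1, OTUB1, GW7, WRKY45, PIN1B, SNB, D10 and D27, among others, are not analysed here. Within the arrays of a group, 0.0238% of values were identical, so no pair was treated as 1 array. Alternatives were a replicate block, quantile normalisation, a filter on dim probe sets, a Gapdh covariate, a fit of the compared groups alone, treat, and leaving out single arrays or both arrays that stand apart.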

Additional observations from a re-analysis of the deposited data

Results flagged for a closer look

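The stage steps of 2 genes that share only an SPL symbol differed between leaf positions by the limma F-test over 6 contrasts. HSFA4D had an adjusted p of 0.00451, with log2 differences at stage 4 against stage 2 of 0.50 in the last, 2.06 in the second and 4.65 in the third joint. Both of its third-joint arrays at stage 2 lay below the array median. AT1 had an adjusted p of 0.0494, with -2.41 in the last, -3.48 in the second and -4.20 in the third joint. Its stage 2 means were 6.34, 7.28 and 8.03 in these positions. All 18 later joint arrays of AT1 lay at 3.44 to 4.17, below the array medians. The dim range therefore limits what the size of its fall in each position can show. The HSFA4D call was kept under 27 of 27 alternatives (adjusted p from 0.000919 to 0.0238). The AT1 call was lost under 21 of 27 (adjusted p from 0.0152 to 0.155), among them 19 of the 24 leave-outs of 1 array, with the highest value without replicate 2 of the last joint at stage 2. The F-test called 5.49% of all probe sets.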

How the results depend on the processing

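The fall of IPA1, AT1 and the rise of HSFA4D at stage 4 against stage 2 were called under 18 of 18 alternatives, IPA1 between -2.76 and -2.41. At stage 6 against stage 2, IPA1, SPL12 and SPL16 were called under 18 of 18. Treat is not among those 18 in either comparison, since only counts of genes were kept for it. SPL16 ran from -1.82 to -1.04 at stage 6 against stage 2, so its smallest difference was barely past the 2-fold limit. The count of SPL factors called in the joint against the leaf, 1, became 0 with the replicate block, quantile normalisation, the Gapdh covariate, the compared groups alone, treat, without both arrays that stand apart (an alternative added after seeing the data), and without any single array (0 to 0). IPA1 itself ran from 0.90 to 1.38 there, with an adjusted p of 0.0514 with the block, 0.0592 after quantile normalisation and 0.2 with the Gapdh covariate. The count at stage 4 against stage 2, 2, became 1 under treat and ran from 1 to 2 over the single arrays left out. The labels do not say whether a replicate number pairs samples across groups. Deviations from the group mean correlated at over 0.1 in 24 of 78 pairs of groups, with a median of 0.04 and a range of -0.31 to 0.55. Whether arrays of 1 number share a batch is not known. Besides the call of IPA1 in the joint against the leaf, the replicate block changed that of AT1 in the F-test (adjusted p = 0.0568). The call of HSFA4D at stage 5 against stage 4 was lost with the compared groups alone (adjusted p = 0.102), under treat, and without last joint stage 4 replicate 2 (0.0609), last joint stage 5 replicate 1 (0.061), either second joint array at stage 4 (0.0583 and 0.0626), or replicate 1 of the second joint at stage 5 (0.0685), the third at stage 4 (0.0758) or the third at stage 5 (0.0905). Differences near 0 changed sign, and none was called: SPL7 at stage 5 against stage 4 (0.0081 after quantile normalisation; -0.0727 to 0.0388 with 1 array left out), HSFA4D at stage 6 against stage 5 (-0.29 with the Gapdh covariate; -0.11 to 0.25), and AT1 at stage 6 against stage 5 (-0.0475 with the Gapdh covariate, -0.0087 without both arrays; -0.0251 to 0.0345). So did SPL7 in the last against the third joint (-0.0090 without both arrays; -0.0383 to 0.0938), SPL12 there (-0.0484 to 0.21), and in the joint against the leaf SPL12 (-0.33 to 0.10), SPL16 (-0.48 to 0.37) and HSFA4D (-1.03 to 0.0531). Where 1 array of a group was left, its spread was taken to be that of the other groups. A mean over probe sets changed nothing, since each member has 1. The comparisons within positions, within stages and at 60 days were not run under alternatives, nor were the genes outside the members. Values near or below the array median limit what SPL7, SPL16, the later IPA1 and AT1 values and HSFA4D in the third joint at stage 2 can show.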
